A study of Mus musculus with 4 samples.

Results

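Expression of 38 genes for lysosomal hydrolases and lysosomal membrane proteins was compared between cervical lymph node samples of wild-type mice and cervical samples of mice lacking Becn1 in myeloid cells. The genes were chosen by name, with earlier results of these data known: 6 membrane proteins, 10 proteases, 10 sugar hydrolases, 6 proteins that handle lipids, 4 proton pump subunits, and the acid phosphatase Acp5 and progranulin (Grn). All 38 were found by symbol among the 38087 genes of the deposited reads table, and all 38 passed the filter on low counts. Ribosome-depleted total RNA of 4 samples was read on an Ion Torrent sequencer: 2 labelled WT and 2 labelled Becn1-M-KO (here KO). All 4 came from C57BL/6 mice at post natal week 20 and carry cervical lymph node as the tissue label. In the series title the KO samples are B cell lymphomas, so the effect of the genotype and that of the tumour cannot be told apart. The promoter that drove the deletion is not given in the sources used here. Whether replicates are separate animals is not stated in the labels, and the p-values therefore cover only the spread between the 4 samples, which may be technical.

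Lysosomes are acidic organelles in which acid hydrolases break down protein, glycans and lipids delivered by endocytosis, phagocytosis and autophagy. A vacuolar proton pump acidifies the lumen, heavily glycosylated membrane proteins line it, and many of the hydrolases travel there through mannose 6-phosphate receptors. Becn1 encodes Beclin-1, part of a lipid kinase complex that acts in autophagy and endosome traffic, both of which end at the lysosome. Macrophages and other phagocytes are rich in lysosomes. The transcription factors TFEB, TFE3 and MITF bind a palindromic motif with the core CACGTG in many lysosomal promoters.

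Depth was 15604247 to 20067004 reads per library. Becn1 itself had 454 and 1330 reads in the WT libraries against 984 and 1384 in the KO libraries (log2 fold change −0.20, SE 0.21, adjusted p = 0.557). The deletion was in myeloid cells only, and reads may have been counted over the whole gene, so the whole-tissue level is no check of the genotype. The WT libraries stood apart from the node label and from each other. The summed reads of 13 epithelial markers, most of them salivary, came to 385500 and 99200 CPM (reads scaled to a common library size, here the library total) in the WT libraries against 125 and 3786 CPM in the KO libraries. WT replicate 1 had 5.02 CPM over 6 B cell markers and 1.49 over 6 T cell markers, against 1228 and 410.4 in WT replicate 2, and the KO libraries had 1781 and 1707 for B cells and 349.6 and 334.2 for T cells. Sex also went with genotype: the female-specific Xist had 2088 and 5314 reads in the WT libraries against 3 and 34 in the KO libraries. The effects of sex and genotype therefore cannot be told apart for any gene here, including the X-linked members Lamp2, Ids and Gla. The part of sex in the values was not tested.

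The core motif stood near the start of more of these genes than of genes at large, and 6 promoter stretches show where. RefSeq promoter windows of 300 bases (250 before the start to 50 after, GRCm38.p6) were at hand for 33 of the 38 genes; Atp6v1b2, Ctsh, Npc1, Atp6v0d2 and Ctsb had none. CACGTG, which reads the same on both strands, occurred in 12 of the 33 (36.4%) and in 8.09% of all 27025 gene symbols. The longer palindrome TCACGTGA, which contains it, occurred in 6 of the 33 (18.2%) and in 304 (1.13%) of all symbols. The stretches below are the 100 bases just before the start, 5′ to 3′ on the gene's strand, with capitals marking CACGTG or TCACGTGA. Lamp1, Mcoln1, Ctsd and Naglu are shown as members with matches, and Ctss and Cd68 as the members with the largest fold changes, whose windows held neither motif.
Lamp1, chr8:13159061-13159160, + strand: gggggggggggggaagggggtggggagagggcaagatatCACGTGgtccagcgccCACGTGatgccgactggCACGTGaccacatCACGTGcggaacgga
Mcoln1, chr8:3500419-3500518, + strand: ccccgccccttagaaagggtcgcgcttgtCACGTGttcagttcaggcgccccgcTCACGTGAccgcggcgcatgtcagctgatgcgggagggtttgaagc
Ctsd, chr7:142387828-142387927, - strand: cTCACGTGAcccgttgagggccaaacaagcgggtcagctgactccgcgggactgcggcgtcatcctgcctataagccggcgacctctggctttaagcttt
Naglu, chr11:101069994-101070093, + strand: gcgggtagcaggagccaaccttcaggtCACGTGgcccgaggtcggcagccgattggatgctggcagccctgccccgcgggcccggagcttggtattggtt
Ctss, chr3:95526686-95526785, + strand: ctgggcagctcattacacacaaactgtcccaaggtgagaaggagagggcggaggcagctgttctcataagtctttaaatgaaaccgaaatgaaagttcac
Cd68, chr11:69666171-69666270, - strand: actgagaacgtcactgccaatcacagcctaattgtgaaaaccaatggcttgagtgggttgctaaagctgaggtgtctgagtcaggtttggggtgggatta
The 12 members with CACGTG had a median log2 fold change (KO minus WT, as described below) of 0.54, ranging from −0.56 (Ctsl) to 1.65 (Lgmn). The 21 members without it had a median of 1.03, ranging from −0.87 (Smpd1) to 3.10 (Ctss). Motif matches describe letters only, and these 2 medians were not tested against each other.

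Most of the lysosomal genes had higher levels in both KO libraries than in both WT libraries, led by the proteases Ctss, Ctsc and Ctsz, the macrophage membrane protein Cd68, and the lipid handling genes Psap and Lipa, at 4.71-fold to 8.57-fold. None of the 38 passed the test across all genes. The test was edgeR's quasi-likelihood test on counts with TMM scaling, which corrects library totals for a few dominant genes, with Benjamini-Hochberg adjustment over 20695 genes and a threshold of 0.05. By this test 0 members were higher and 0 lower, where 1.04% of all tested genes were called higher and 2.18% lower. The smallest adjusted p among the members was 0.0501, for Ctsc. At an unadjusted p under 0.05, 20 members were higher and 1 lower, against 10.5% and 16.4% of all genes. Both KO libraries lay above both WT libraries for 25 members (65.8%) and below them for 5 (13.2%), and the groups overlapped for 8; over all tested genes these shares were 34.3% above and 33.3% below. The median log2 fold change was 0.85 over the members and 0.01 over all tested genes. Because the members were chosen with earlier results of these data known, these contrasts with all genes are descriptions. DESeq2 on the same libraries called 16 members higher and 0 lower, where it called 6.4% and 11.7% of all genes; the 16 were Cd68, Ctsa, Ctsb, Ctsc, Ctsh, Ctss, Ctsz, Lgmn, Gla, Gusb, Lipa, Npc1, Npc2, Ppt1, Psap and Acp5. With limma-voom, 3 members were called higher (Ctsc, Ctsz and Psap) and 0 lower, where 1.21% and 1.95% of all genes were called.

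The members' share of all reads was 0.244% in WT replicate 1 (95% Wilson interval 0.241% to 0.246%), 0.57% in WT replicate 2 (0.566% to 0.573%), 1.83% in KO replicate 1 (1.83% to 1.84%) and 1.80% in KO replicate 2 (1.79% to 1.81%). These intervals cover counting error only. Shares of all reads also depend on the other genes in a library. The gene with the most reads took 32.0% of WT replicate 1 (Spt1) and 5.76% of WT replicate 2 (Dcpp2). In the KO libraries it was Ighg2c, with 1.51% and 1.45%. The part of the salivary genes Spt1 and Dcpp2 in the members' shares was not tested. After TMM scaling the members summed to 4749 and 4859 CPM for WT samples and 14390 and 13920 CPM for KO samples, so the WT sums were close on that scale, although single members differed between the WT libraries in both directions, as given below. In a whole tissue sample, more cells of a lysosome-rich type and more RNA per cell cannot be told apart. Levels below are TMM-scaled CPM, and fold changes are log2 values of KO minus WT with their standard error (SE). The listed gene lengths are those of whole genes, and how reads were counted is not given, so levels are not compared between genes.

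**Figure D1:**
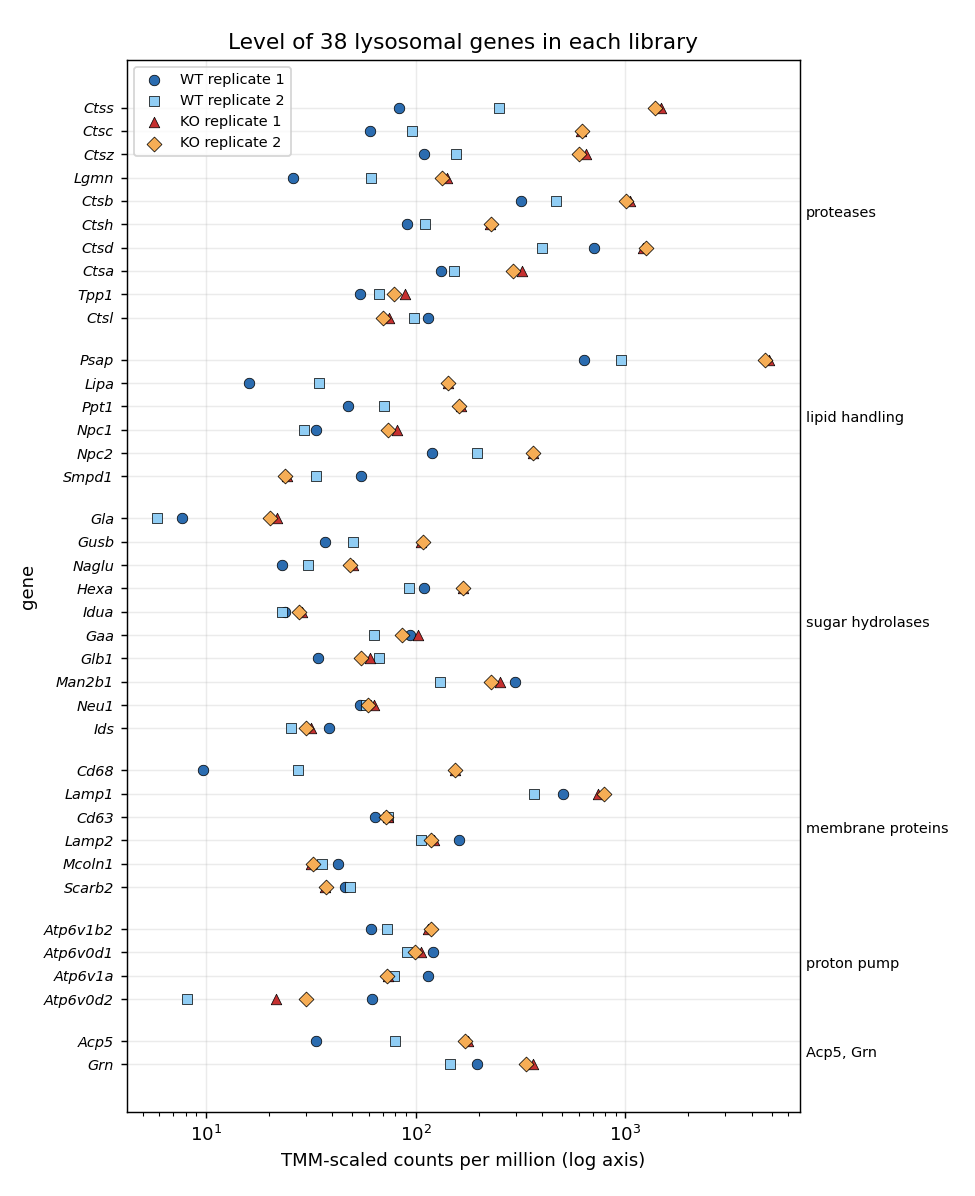
Each row is a lysosomal gene, grouped by role and ordered by fold change within its role, and each mark is its TMM-scaled CPM (log axis) in a single library: circle and square for WT replicates 1 and 2, triangle and diamond for KO replicates 1 and 2. The KO marks nearly coincide for most genes, and they lie to the right of both WT marks for 25 of 38 genes.

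**Figure D2:**
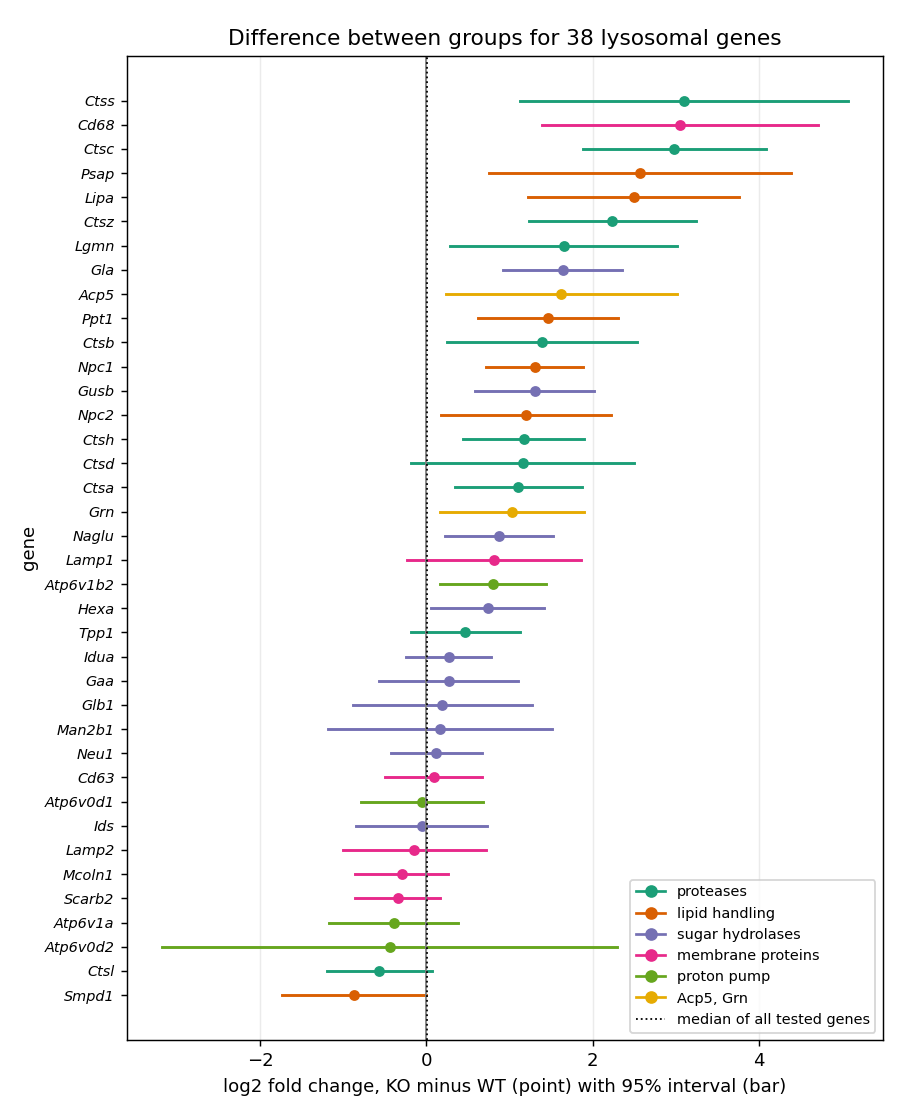
Points are log2 fold changes of KO minus WT for each of the 38 genes, bars are unadjusted 95% intervals from the edgeR fit, colours mark the role, and the dotted line is the median of all tested genes. For 20 genes the interval lies above 0, for Smpd1 it lies below 0, and for 17 it holds 0.

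The KO libraries were much more alike than the WT libraries. The ratio of KO replicate 2 to KO replicate 1 ranged from 0.841 (Gaa) to 1.38 (Atp6v0d2) and lay within 10% of equal for 35 of the 38 genes. The ratio of WT replicate 2 to WT replicate 1 ranged from 0.131 (Atp6v0d2) to 3.01 (Ctss). The gap between the WT libraries was wider than that between the KO libraries for 37 of 38 genes. WT replicate 2 was the higher of the WT libraries for 21 members and the lower for 17.

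Among the proteases, 9 of 10 genes lay higher in both KO libraries and Ctsl lay lower, where 34.3% and 33.3% of all tested genes did. Ctss, the cathepsin S gene of antigen presenting cells (chromosome 3, 95526786 to 95556403), had WT levels of 83.0 and 250.1 CPM and KO levels of 1477 and 1379 CPM. Its KO levels were above the higher WT level, though the WT libraries themselves differed by 3.01-fold (log2 fold change 3.10, SE 0.71, adjusted p = 0.0974). Ctsc, which encodes the protease that activates granule serine proteases (chromosome 7, 88278085 to 88310888), measured 60.6 and 95.9 CPM in WT samples against 615.1 and 620.4 CPM in KO samples. This gene came nearest to the threshold, with a log2 fold change of 2.98 (SE 0.40, adjusted p = 0.0501 by edgeR, 0.0424 by limma-voom and 3.9e-10 by DESeq2). Ctsz, a carboxypeptidase gene, stood at 109.2 and 155.5 CPM in the WT libraries and at 646.8 and 601.6 CPM in the KO libraries (2.24, SE 0.36, adjusted p = 0.0629 by edgeR).

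Lgmn encodes legumain, an asparaginyl endopeptidase. It had WT levels of 26.0 and 61.4 CPM and KO levels of 141.9 and 133.0 CPM, with no overlap (1.65, SE 0.49, edgeR adjusted p = 0.141). Ctsb, a broad cysteine protease gene, measured 318.4 and 468.3 CPM in WT samples against 1057 and 1003 CPM in KO samples (1.39, SE 0.41, edgeR adjusted p = 0.14). Ctsd, the main aspartic protease gene, whose promoter stretch is shown above, stood at 709.0 and 400.8 CPM in the WT libraries and at 1215 and 1262 CPM in the KO libraries. It was higher in WT replicate 1 than in WT replicate 2, the opposite order to Ctss and Ctsb (1.16, SE 0.48, edgeR adjusted p = 0.227). Ctsh and Ctsa had values of 1.17 and 1.10, and Tpp1, a tripeptidyl peptidase gene, had 0.47. Ctsl, a cysteine protease gene related to Ctss, had WT levels of 115.2 and 97.8 CPM and KO levels of 74.4 and 69.7 CPM. Both KO levels lay below both WT levels (−0.56, SE 0.23, edgeR adjusted p = 0.219), but with library totals alone the value was 0.087, where the median of all tested genes was 0.60. Within a library the ratio of Ctss reads to Ctsl reads, which no scaling changes, was 0.72 and 2.56 in WT and 19.8 in both KO libraries; this pair was chosen after its values were seen, so the ratio is a description.

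Of the 6 genes that handle lipids, 5 lay higher in both KO libraries and the sphingomyelinase gene Smpd1 lay lower. The shares of all tested genes were 34.3% higher and 33.3% lower. Psap encodes prosaposin, the precursor of the saposins that present sphingolipids to their hydrolases (chromosome 10, 60277627 to 60302597). It measured 638.9 and 954.9 CPM in WT samples against 4841 and 4619 CPM in KO samples (2.57, SE 0.66, edgeR adjusted p = 0.113). Psap alone took 13.5% (95% Wilson interval 13.1% to 13.8%) and 19.7% (19.4% to 19.9%) of the members' reads in WT and 33.7% (33.5% to 33.8%) and 33.2% (33.0% to 33.3%) in KO. Lipa, the acid lipase gene for cholesteryl esters and triglycerides, stood at 16.1 and 34.5 CPM in the WT libraries and at 142.1 and 143.2 CPM in the KO libraries. Its KO libraries were nearly equal and far above both WT libraries (2.49, SE 0.46, edgeR adjusted p = 0.0722).

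Npc1 and Npc2 encode the membrane and the soluble protein that pass cholesterol out of the lysosome. Npc1 had WT levels of 33.5 and 29.5 CPM and KO levels of 81.3 and 73.9 CPM, where the WT libraries were close (1.30, SE 0.21, edgeR adjusted p = 0.0626). Npc2 measured 119.4 and 195.6 CPM in WT samples against 361.8 and 361.1 CPM in KO samples (1.20, SE 0.37, edgeR adjusted p = 0.148). Ppt1, a palmitoyl thioesterase gene, had a value of 1.46 (SE 0.31, edgeR adjusted p = 0.0841). Smpd1, acid sphingomyelinase, stood at 54.8 and 33.4 CPM in the WT libraries and at 24.4 and 23.9 CPM in the KO libraries. It had the most negative value of the 38 members (−0.87, SE 0.31, edgeR adjusted p = 0.183).

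The sugar hydrolases split into genes with higher KO levels and genes whose groups overlapped or nearly so. Gla, alpha-galactosidase A, on chromosome X (134588149 to 134601125), had WT levels of 7.73 and 5.87 CPM and KO levels of 21.9 and 20.3 CPM. The groups were well apart (1.64, SE 0.26, edgeR adjusted p = 0.0611). Gusb, beta-glucuronidase, measured 37.0 and 50.1 CPM in WT samples against 105.9 and 108.9 CPM in KO samples (1.30, SE 0.26, edgeR adjusted p = 0.0796). Naglu and Hexa, which remove N-acetylglucosamine from heparan sulfate and N-acetylgalactosamine from gangliosides, had values of 0.87 and 0.74. For Gaa, Glb1, Man2b1 and Ids the groups overlapped, with values of 0.27, 0.19, 0.17 and −0.06. Man2b1, lysosomal alpha-mannosidase, stood at 297.5 and 131.1 CPM in the WT libraries and at 252.9 and 228.1 CPM in the KO libraries, so both KO levels fell between the WT levels. Neu1 and Idua had values of 0.12 (95% interval −0.43 to 0.67) and 0.27 (−0.24 to 0.78).

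Partners of a known complex had different values. Cathepsin A, beta-galactosidase and neuraminidase 1 (Ctsa, Glb1 and Neu1) form a multienzyme complex in the lysosome. Ctsa had WT levels of 132.7 and 153.2 CPM and KO levels of 323.1 and 291.9 CPM (1.10, SE 0.28, edgeR adjusted p = 0.109). Glb1 measured 34.2 and 66.8 CPM in WT samples against 60.8 and 54.9 CPM in KO samples, and Neu1 at 54.6 and 58.1 CPM in the WT libraries and 63.4 and 59.0 CPM in the KO libraries. The ratio of Ctsa to Neu1 reads was 2.43 and 2.64 in WT and 5.10 and 4.95 in KO, and that of Ctsa to Glb1 reads was 3.88 and 2.29 in WT and 5.32 and 5.31 in KO. These ratios were picked after their values were seen and were not tested.

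Among the 6 membrane proteins, Cd68 and Lamp1 lay higher in both KO libraries, Scarb2 and Mcoln1 lay lower, and the groups overlapped for Lamp2 and Cd63. Among all tested genes, 34.3% lay above both WT libraries and 33.3% below, so this split is a description. Cd68, a heavily glycosylated protein of macrophage lysosomes (chromosome 11, 69664213 to 69666153), stood at 9.66 and 27.6 CPM in the WT libraries and at 154.1 and 154.9 CPM in the KO libraries. The KO libraries were almost equal and well above both WT libraries (3.05, SE 0.60, edgeR adjusted p = 0.0786). Lamp1 had WT levels of 505.9 and 365.5 CPM and KO levels of 740.9 and 795.4 CPM (0.82, SE 0.38, edgeR adjusted p = 0.258). Lamp2, its X-linked relative, measured 160.9 and 105.7 CPM in WT samples against 122.3 and 118.8 CPM in KO samples, where the groups overlapped (−0.14, 95% interval −1.01 to 0.72). The ratio of Lamp1 to Lamp2 reads was 3.15 and 3.46 in WT and 6.06 and 6.70 in KO. Like the ratios above, it was picked after its values were seen and was not tested. Cd63, a tetraspanin gene, had a value of 0.09 (95% interval −0.50 to 0.68). Scarb2, an abundant membrane glycoprotein gene, and Mcoln1, the calcium channel whose promoter holds both motif forms shown above, had values of −0.35 and −0.30 with TMM scaling and 0.24 and 0.36 with library totals alone. With library totals alone the median of all tested genes was 0.60.

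With TMM scaling 1 of the 4 proton pump members had a positive value and 3 had negative ones; with library totals alone all 4 were positive (Atp6v1b2 1.36, Atp6v0d2 0.67, Atp6v0d1 0.64 and Atp6v1a 0.32). Library totals alone also moved the median of all tested genes to 0.60. Atp6v1b2, a catalytic sector subunit gene, stood at 61.1 and 72.7 CPM in the WT libraries and at 114.5 and 118.8 CPM in the KO libraries (0.80, SE 0.23, edgeR adjusted p = 0.135). Atp6v1a and Atp6v0d1 had values of −0.39 and −0.05. Atp6v0d2, a form of the d subunit found in osteoclasts and some macrophages and epithelia, had WT levels of 62.2 and 8.16 CPM and KO levels of 21.6 and 29.9 CPM. Here the WT libraries lay on both sides of the KO libraries, and the log2 fold change of −0.44 had a 95% interval of −3.18 to 2.30. Acp5, tartrate-resistant acid phosphatase, measured 33.3 and 79.9 CPM in WT samples against 177.3 and 172.5 CPM in KO samples (1.62, SE 0.50, edgeR adjusted p = 0.149). Grn, the precursor of the granulins, stood at 197.2 and 145.4 CPM in the WT libraries and at 364.1 and 335.4 CPM in the KO libraries (1.03, SE 0.31, edgeR adjusted p = 0.145).

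Because the WT libraries differed, each was also set against the KO pair alone. These fits share the KO libraries and hold a single WT library each, so their p-values say nothing of the spread within WT. Without WT replicate 1, 26 members were called higher and 3 lower, where 20.9% of all genes were called higher and 22.8% lower. Without WT replicate 2, 22 were called higher and 9 lower, where 32.3% and 32.5% of all genes were called. Ctsl had −0.44 against WT replicate 2 and −0.69 against WT replicate 1, Scarb2 had −0.38 and −0.32, and Smpd1 had −0.47 and −1.20. Atp6v0d2 and Man2b1 were called in opposite directions: Atp6v0d2 had 1.67 against WT replicate 2 and −1.28 against WT replicate 1, and Man2b1 had 0.88 and −0.32. For Ctss the values were 2.52 against WT replicate 2 and 4.09 against WT replicate 1, for Cd68 2.49 and 3.98, and for Psap 2.31 and 2.87. Glb1 had −0.20 and 0.74, Ctsd had 1.63 and 0.79, and Gla had 1.85 and 1.43. Leaving out KO replicate 1 or KO replicate 2 gave 0 edgeR calls over all genes, members included. At an unadjusted p under 0.05, 5 and 6 members were higher in these fits, where 3.37% and 3.46% of all genes were higher.

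**Figure D3:**
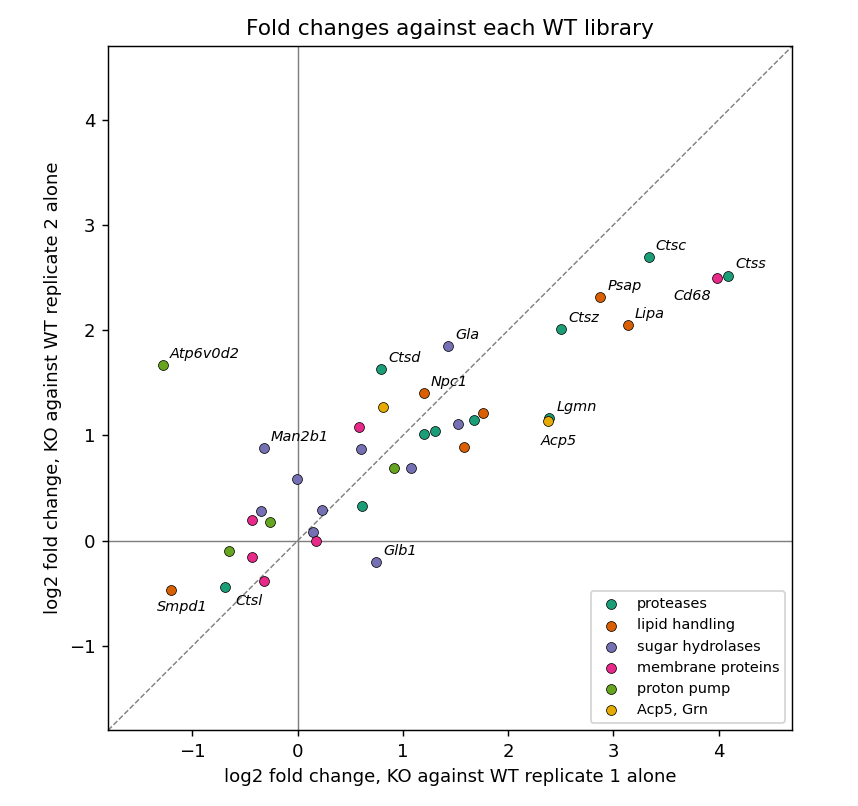
Each point is a lysosomal gene; the horizontal axis is its log2 fold change of the KO libraries against WT replicate 1 alone and the vertical axis that against WT replicate 2 alone, with colours for role and a dashed line of equal values. The axes share the KO libraries; Ctss, Cd68, Ctsc, Psap, Lipa and Ctsz lie above 2 on both axes, and Atp6v0d2 lies at −1.28 and 1.67.

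Markers of several cell types differed between the libraries, few of them past the test. The 16 macrophage and monocyte markers summed to 205.1 and 1680 CPM of the library total for WT samples and 3181 and 3016 CPM for KO samples. Of them 1 was called higher (Fcgr1, log2 fold change 2.0, edgeR adjusted p = 0.0497) and 0 lower; this call was lost with DESeq2 size factors (0.0507), limma-voom (0.057), library totals alone (0.15), the replicate block (0.0918) and the crossed block (0.0692), all adjusted p-values, and without either KO library. Of the 16, 11 lay above both WT libraries and 1 (Cd163) below, and 4 overlapped. Over all tested genes, 34.3% lay above and 33.3% below. The defining markers Csf1r and Adgre1 had values of 2.26 and 1.34. The directions of the macrophage markers were not uniform: Lyz2 had 495 and 11896 reads in the WT libraries against 2598 and 3779 in the KO libraries, and Marco had 4 and 3541 in the WT libraries and 622 and 424 in the KO libraries. On the same scale, the 8 dendritic cell markers summed to 10.7 and 275.6 CPM in WT and 525.3 and 501.3 in KO, with Itgax called higher (4.08, edgeR adjusted p = 0.049) and 0 lower. Itgax carried that difference: the other 7 summed to 6.26 and 253.8 CPM in WT samples against 218.5 and 215.5 CPM in KO samples, and Cd209a and Siglech had values of −2.34 and −0.93. The Itgax call was lost with library totals alone, with the replicate block and without either KO library. The 6 tested of 8 neutrophil markers summed to 1.86 and 23.1 CPM in WT and 90.8 and 101.0 in KO. Of these 6, 0 were called by edgeR and 2 were higher at an unadjusted p under 0.05 (10.5% of all tested genes). Csf3r carried most of the neutrophil sums: the other 5 summed to 0.372 and 12.5 CPM in WT samples against 16.0 and 21.2 CPM in KO samples, Cxcr2 overlapped (0.09), and Elane had at most 3 reads in any library. Osteoclast and giant cell markers were near 0: 4 of 5 were tested, they summed to 0.805 and 5.87 CPM in WT and 16.1 and 14.5 in KO, and Oscar had 0 reads in both WT libraries. Ocstamp, with 1 and 4 reads in the WT libraries and 53 and 55 in the KO libraries, was called higher (3.78, edgeR adjusted p = 0.0491), a call lost with limma-voom (0.0518), library totals alone (0.0851) and both blocks (0.087 and 0.0643). The Ocstamp call was also lost without either KO library. The 5 fibroblast markers summed to 204.8 and 266.7 CPM in WT and 920.3 and 755.2 in KO, and the 4 endothelial markers to 37.7 and 284.9 CPM in WT samples against 278.2 and 224.2 CPM in KO samples. No B cell, T cell, fibroblast or endothelial marker passed edgeR's test, and all 6 T cell markers and 3 of 4 endothelial markers overlapped. At an unadjusted p under 0.05, 3 fibroblast markers were higher and 1 endothelial marker was lower. Of all tested genes, 10.5% were higher and 16.4% lower at that level. Of the 13 epithelial markers, whose sums are given above, 4 were called lower and 0 higher. EdgeR called 2.18% of all tested genes lower and 1.04% higher. The part of these cell types in the lysosomal values was not tested.

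**Figure D4:**
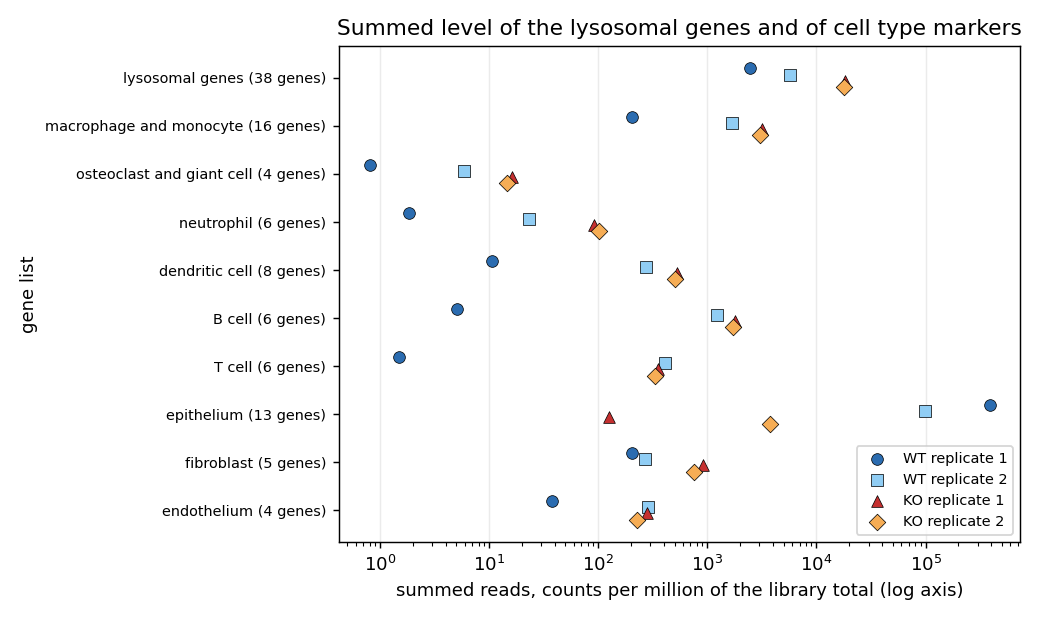
Summed CPM of the library total (log axis) for the lysosomal genes and for lists of cell type markers, with a mark for each library and the number of tested genes in brackets. The lysosomal genes run from 2436 in WT replicate 1 to 18330 in KO replicate 1, the macrophage and monocyte markers from 205.1 to 3181, and the epithelial markers from 125 in KO replicate 1 to 385500 in WT replicate 1.

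Other lysosomal genes, from a list of 56, went in both directions. Of the 56 tested, 1 was called higher (1.04% of all genes) and 2 lower (2.18% of all genes). Both KO libraries lay above both WT libraries for 26 and below for 15, and the median log2 fold change was 0.12. For the 41 genes outside the proton pump these were 22 above, 12 below and a median of 0.41. The 15 proton pump and accessory genes had 4 above, 3 below and a median of −0.02. Over all tested genes, 34.3% lay above and 33.3% below. Clcn7, the lysosomal chloride and proton exchanger gene, rose from WT levels of 49.3 and 42.1 CPM to KO levels of 183.3 and 189.0 CPM (log2 fold change 2.03, SE 0.25, edgeR adjusted p = 0.0483). Ctsf, a cysteine protease gene, fell from 30.1 and 21.3 CPM to 2.72 and 2.20 CPM (−3.38, SE 0.32, edgeR adjusted p = 0.0441). Slc17a5, the sialic acid exporter gene, fell from 136.5 and 87.0 CPM to 16.4 and 17.5 CPM (−2.72, SE 0.32, edgeR adjusted p = 0.0475). None of these 3 calls was kept in the fits without KO replicate 1, without KO replicate 2, with library totals alone or with the replicate block, which made 0 calls over all genes; that of Clcn7 was also lost with the crossed block (adjusted p = 0.0776).

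The remaining named genes of that list did not pass the test. The transcription factor genes Tfeb, Tfe3 and Mitf had values of 0.58, 0.71 and 0.50 (edgeR adjusted p = 0.219, 0.13 and 0.233). Each had both KO libraries above both WT libraries, as did 34.3% of all tested genes. The mannose 6-phosphate receptor genes M6pr and Igf2r had values of 0.13 and −0.83. The cathepsin inhibitor genes Cst3 and Cstb had values of 0.86 and 0.97. Ctsk, the osteoclast collagenase gene, measured 2.54 and 2.77 CPM in WT samples against 7.09 and 7.28 CPM in KO samples (1.43, SE 0.29, edgeR adjusted p = 0.0796). Lamp3, a membrane protein gene of mature dendritic cells, had 14 and 47 reads in the WT libraries against 61 and 112 in the KO libraries (0.89). Of the other 15 proton pump and accessory genes 7 had positive and 8 negative values, with 0 called in either direction and a median of −0.02. Tcirg1, the a3 subunit gene, stood at 46.1 and 66.9 CPM in the WT libraries and at 192.1 and 195.8 CPM in the KO libraries (1.78, SE 0.30, edgeR adjusted p = 0.0662). Atp6v1b1, the B subunit form of kidney and other epithelia, had 216 and 153 reads in the WT libraries against 3 and 9 in the KO libraries (edgeR adjusted p = 0.0617).

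The authors' deposited table lists genes with their own log2 fold changes and unadjusted p-values, all under 0.05. Of the 38 members, the authors' deposited table lists 21, with 19 higher and 2 lower (Scarb2 and Ctsl), among 5511 genes of which 2482 are higher and 3029 lower. All 21 have the same sign in the authors' deposited table as in the edgeR fit. The series holds only these 4 samples, so the shared signs are no independent support. The authors' deposited table gives Ctss 3.37 (p = 0.0336), Ctsc 3.07 (p = 0.0069), Npc1 1.43 (p = 0.0012) and Ctsh 1.10 (p = 0.0003).

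Overlapping genes limit a few of these values. By their deposited coordinates, 12 members overlap another gene, and for Ctsa, Ppt1, Idua, Glb1 and Npc1 an overlapping gene holds more than 10% as many reads as the member. Idua and Dgkq, on the opposite strand, share 9342 bases, and Tmppe lies within Glb1 on the same strand with 42.6% as many reads. Whether the counting used strand is not given in the sources used here, so reads of these 5 members may not all be their own.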

How the data were processed

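The reads table the authors deposited holds raw counts, per the file headers. The submitters' processing notes name mm10 and DESeq2 1.62 but not what they were used for; no aligner or counting program is given in the sources used here. Each of the 38087 listed lengths is that of the whole gene with its introns, so reads from introns may be included. The authors' deposited table of comparisons gives log2 fold changes and unadjusted p-values per gene, per the file headers. Their table of centred log2 values and 8 further per-sample columns were not used.

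The tests used edgeR 4.0.16 (R 4.3.3) with a quasi-likelihood fit, TMM scaling and filterByExpr (minimum count 10, total 15), and the script was tested on simulated data. The SE is the log2 fold change divided by the root of F; intervals are at 95%. TMM factors were 0.513 and 1.18 in WT and 1.28 and 1.29 in KO, with 15604247 to 20067004 reads per library. Alternatives were DESeq2 1.42.0, limma-voom (limma 3.58.1), size factors of DESeq2, scaling by library totals, omission of the count filter, a filter of 1 CPM in 2 libraries with 20 reads, replicate blocks and each library left out. Adgre1 was matched by gene ID, as the table uses an older symbol.

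Named were every member, and, of the 56 other lysosomal genes, those past the threshold and a fixed set; named marker genes outside these were chosen after their values were seen. The members and lists were chosen with earlier results of these data known. Promoter sequences are RefSeq's (GRCm38.p6). Some results are not reported here.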

Additional observations from a re-analysis of the deposited data

How the results depend on the processing

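The median log2 fold change of the 38 lysosomal genes, 0.85, stayed between 0.80 and 0.95 under all alternatives but library totals alone, where it was 1.46; that scaling also moved the median of all genes from 0.01 to 0.60. With library totals alone the values of Lamp2 (0.58), Scarb2 (0.24), Mcoln1 (0.36), Ctsl (0.087), Ids (0.67), Atp6v0d1 (0.64), Atp6v0d2 (0.67) and Atp6v1a (0.32) turned positive, and Smpd1 was the only member still negative (−0.12). Calls among the members were 0 higher and 0 lower, but 5 higher with no count filter (Cd68, Ctsc, Ctsz, Gla and Lipa), 1 with the stricter filter (Ctsc), 3 with limma-voom and 16 with DESeq2. Among all genes, 542 of 30898 were called higher with no count filter and 221 of 19262 with the stricter filter. Limma-voom called 250 and DESeq2 1325 of 20695 genes higher. The cause of these differences was not tested. Over the fits that leave out a library, member calls ranged from 0 to 26 higher and from 0 to 9 lower, and those of all genes from 0 to 6887 higher and from 0 to 6922 lower, against 216 and 451 with all 4 libraries. Calls of all genes were 0 and 0 with library totals alone, where 1472 and 1505 genes had an unadjusted p under 0.05. They were 542 and 1188 with no count filter, 221 and 470 with the stricter filter, and 1325 and 2430 with DESeq2.

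Other signs turned as follows. Over the fits without WT replicate 1 and without WT replicate 2, in that order, the values were 0.19 and −0.43 for Lamp2, −0.20 and 0.74 for Glb1, 0.28 and −0.35 for Ids, 0.18 and −0.26 for Atp6v0d1, 1.67 and −1.28 for Atp6v0d2, 0.59 and −0.0078 for Gaa, and 0.88 and −0.32 for Man2b1. Cd63 stood at −0.0010 without WT replicate 1, and Atp6v0d1 at 0.0063 without KO replicate 2. With limma-voom they were 0.014 for Ids and 0.49 for Atp6v0d2.

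The replicate numbers do not show a pairing: deviations of same-numbered libraries correlated at −0.108 across genes, which are not independent. With the replicate block 0 members and 0 and 0 genes were called, with 1866 and 2734 genes at an unadjusted p under 0.05, and Atp6v0d2 stood at 0.17. A crossed block, added after seeing the data, called 202 and 643 genes and 0 members, with Atp6v0d2 at 0.16. Among the members the lowest count was 64 reads (Gla, WT replicate 1). The effect of depth was not tested.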
